A study of Mus musculus with 2 samples.

Results

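Barcodes rich in mitochondrial RNA, which are usually filtered out of single-nucleus data, were described here by what other RNA they carried. A barcode was taken when it had at least 500 detected genes and 5% or more of its UMIs (unique molecular identifiers, the counted RNA molecules) from the 13 mitochondrially encoded protein genes. The rule took 10246 of the 51450 deposited barcodes, and 37671 other barcodes with at least 500 genes lay under the limit. Nuclei of flash-frozen hippocampus had been profiled by droplet-based 3' RNA sequencing in 8-month-old mice. Every mouse carried 5XFAD, a set of human transgenes with familial Alzheimer's disease mutations that a neuronal Thy1 promoter drives. The first library is labelled 5XFAD alone (the 5XFAD-only library), and the second adds a knockout of MR1, the molecule that presents antigen to mucosal-associated invariant T cells. Each library pooled 2 mice, 1 male and 1 female, so there was 1 library per genotype and no test between genotypes was possible. The rule itself used the mitochondrial share, so every contrast with the barcodes under the limit is given as a description with no test, and intervals cover counting error only.

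Mitochondrial transcripts are made and kept inside mitochondria, which lie in the cytoplasm, and a clean nucleus holds few of them. Messenger RNAs of ribosomal proteins and other short housekeeping genes are mostly found in the cytoplasm. Long genes with large introns give much unspliced RNA in the nucleus, and long noncoding RNAs such as Malat1 are retained there. In brain tissue some mRNAs are also carried into dendrites, into astrocyte processes and into myelin sheaths, far from the nucleus of their cell.

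The deposited barcodes held 106861726 UMIs in the 5XFAD-only library and 85678909 in the one labelled MR1 knockout. Mr1 gave 96 and 129 UMIs in these libraries, which does not follow the labels. A 3' tag can lie outside a deleted part, so the second library is called the library labelled MR1 knockout throughout. The tissue label was hippocampus, and dentate granule and CA pyramidal neuron-like barcodes were found in both libraries. Striatal projection neuron-like barcodes, with Rarb, Drd2 and Rgs9 among their top 10 genes, numbered 1771 in the 5XFAD-only library and 19 in the other. The libraries had 182 barcode sequences in common, and 3 of these were above the limit in both.

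The limit was passed by 8098 of 23506 barcodes with at least 500 genes in the 5XFAD-only library, or 34.5% (exact binomial 95% interval 33.8 to 35.1). In the library labelled MR1 knockout it was passed by 2148 of 24411, or 8.80% (8.45 to 9.16). The median mitochondrial share of the passing barcodes was 8.95% (interquartile range 6.47 to 16.7, highest 43.8) and 7.32% (5.88 to 10.95, highest 37.8). Under the limit the medians were 1.77% and 1.17%. Just outside the limit, between 4% and 5%, lay 1814 and 968 barcodes, and just inside it, between 5% and 6%, lay 1471 and 602, so the limit cut through a continuous distribution. At 20% or more there were 1636 and 158 barcodes. Barcodes above the limit held fewer UMIs outside the mitochondrial genes, with a median of 2014 against 3981 under it in the 5XFAD-only library and 1524 against 2729 in the other. They also had fewer detected genes, 1275 against 2074 and 1068 against 1628.

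**Figure D1:**
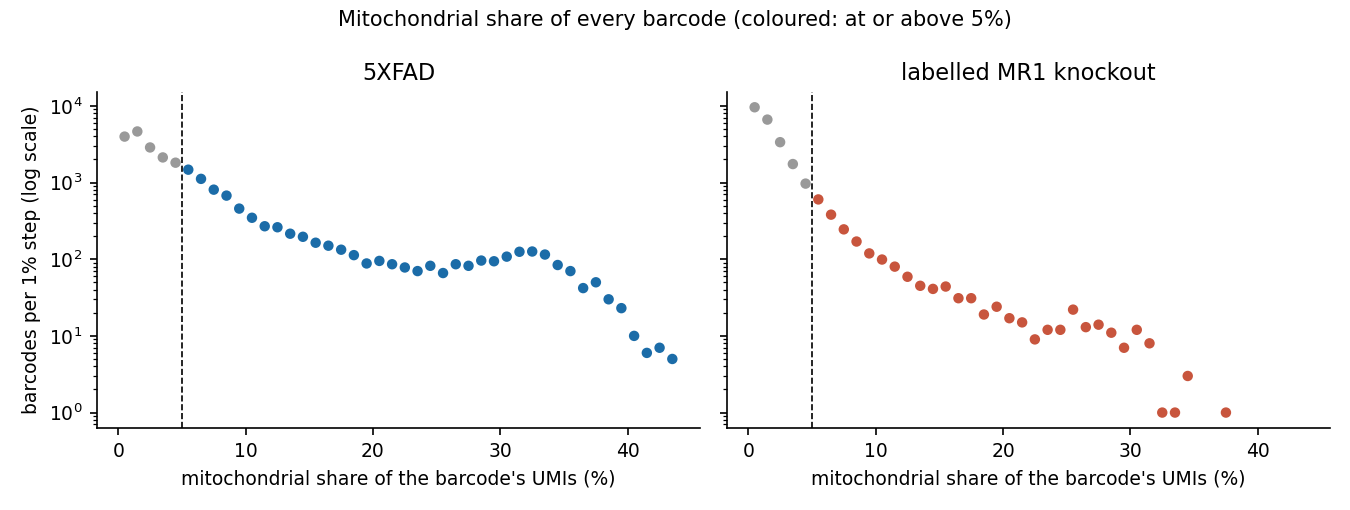
Number of barcodes with at least 500 genes (vertical axis, log scale) in each 1% step of the mitochondrial share of UMIs (horizontal axis, percent), for the 2 libraries; grey points lie under the 5% limit, coloured points at or above it. The 5XFAD library has a second rise around 30%, and the library labelled MR1 knockout reaches 37.8% with far fewer barcodes.

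Sex-linked RNA told the 2 mice of a library apart in part of the barcodes. Among barcodes given to the female mouse by Xist, 25.1% passed the limit in the 5XFAD-only library, and among those given to the male mouse by Y-linked genes 25.01% did. Among barcodes of the library labelled MR1 knockout the same shares were 6.71% and 6.69%. Among barcodes given to a mouse, the 2 mice of a library thus had nearly the same share, and the libraries differed in both sexes. The share over all barcodes of each mouse is not known, since many barcodes above the limit could not be given to a mouse. The 2 mice of a library went through the same capture, so a library and its mice cannot be told apart. Barcodes given to neither mouse, with fewer than 2 Xist UMIs and no Y-linked UMI, passed the limit more often, at 56.6% and 15.4%. They made up 51.6% and 44.9% of the barcodes above the limit against 20.8% and 23.7% under it. RNA of both sexes, a sign of 2 cells under 1 barcode, was seen in 4.32% and 3.63% of the barcodes above the limit and in 9.88% and 7.14% under it. Barcodes with RNA of both sexes had medians of 7255 and 5313 UMIs, and those given to neither mouse 1734 and 1500. Barcodes above the limit held fewer UMIs, so these shares cannot be told apart from depth. Doublet scores marked 20.7% and 13.7% of the barcodes above the limit and 17.6% and 20.1% under it.

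The mitochondrial RNA itself had nearly the same makeup above and under the limit. The 3 genes used as markers were mt-Co1, a core subunit of cytochrome oxidase, mt-Nd1, a subunit of complex I, and mt-Cytb, the core subunit of complex III. mt-Co1 had a median of 38 UMIs per barcode above the limit and 8 under it in the 5XFAD-only library, and 18 against 4 in the other. mt-Nd1 had medians of 13 against 3 and 7 against 1, and mt-Cytb 26 against 6 and 15 against 3. These 3 genes were chosen by the rule, so their levels only show that the rule worked. mt-Co3 made up 20.8% of mitochondrial UMIs above the limit and 23.1% under it in the 5XFAD-only library, and 21.6% and 23.7% in the other. mt-Atp6, a subunit of the ATP synthase, made up 18.5% against 17.3% and 18.7% against 17.1%. The largest relative difference was in mt-Nd6 (chromosome M, 13552 to 14070), the only one of the 13 genes on the minus strand. Its part of the mitochondrial UMIs was 0.162% above and 0.274% under the limit in the 5XFAD-only library, and 0.113% and 0.210% in the library labelled MR1 knockout. mt-Nd6 overlaps the end of mt-Nd5 on the other strand, and the strand setting of the authors' counting is not given in the sources used here.

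To compare the rest of the RNA, UMIs were summed over the barcodes above the limit and over those under it in each library and scaled to UMIs outside the mitochondrial genes. Of 16184 genes with at least 100 UMIs in each library, 3508 (21.7%) were at least 1.5-fold higher above the limit in both libraries, and 1348 (8.33%) at least 1.5-fold lower. Higher genes were thus 72.2% of those past the fold. With the mitochondrial genes in the total they were 53.4%, and with TMM scaling 57.1%. These scalings move every log2 ratio by -0.19 and -0.13 (total) or by -0.07 and -0.20 (TMM) in the 5XFAD and the other library, around a median gene at 0.04 and 0.12. The log2 ratios of the 2 libraries had the same sign in 86.5% of genes, and 13 genes passed 1.5-fold in opposite directions.

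Cytoplasmic messenger RNAs formed the clearest group among the RNAs carried above the limit. All 79 measured genes for cytosolic ribosomal proteins were at least 1.5-fold higher in both libraries, with a median log2 ratio of 2.15 in the 5XFAD-only library and 1.59 in the other. Together they made up 7.37% of non-mitochondrial UMIs above the limit and 1.62% under it in the 5XFAD-only library, and 5.02% and 1.65% in the other. Rplp1, a protein of the ribosomal stalk, stood at 2741 CPM (counts per 1000000 non-mitochondrial UMIs) above and 503 under the limit in the 5XFAD-only library, a ratio of 5.45 (95% interval 5.38 to 5.52). For the library labelled MR1 knockout it stood at 1686 and 445 CPM, a ratio of 3.78 (3.69 to 3.88). Rps29 had ratios of 5.65 and 3.81 and Rpl13 of 4.78 and 3.32. Ratios over the whole list ran from 3.12 to 5.65 and from 2.12 to 4.27, so no ribosomal protein gene was near 1 in either library. Translation factors went the same way, with 18 of 18 genes higher. Among them were Eef1a1, which brings tRNA to the ribosome, at ratios of 4.36 and 2.99, and Tpt1 at 4.85 and 3.399.

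Nuclear genes whose proteins work in mitochondria were also higher, although their mRNAs are read in the cytosol. Of 78 genes of oxidative phosphorylation, 73 were higher in both libraries and none lower, with median log2 ratios of 1.59 and 1.21. Cox8a, a small subunit of cytochrome oxidase, stood at 2222 against 456 CPM in the 5XFAD-only library and at 1493 against 448 in the other, ratios of 4.87 and 3.33. Cox6c and Cox4i1 had ratios of 4.19 and 3.03, and of 3.71 and 2.70. At the other end of the list Ndufs1, a core subunit of complex I, had ratios of 1.11 and 1.08. This gene was named after its value was seen. Of 19 genes for mitochondrial carriers and import 17 were higher, with Chchd2 at 3.38 and 2.51 and the ADP/ATP carrier Slc25a4 at 2.52 and 2.05.

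Other soluble and structural proteins of the cytoplasm followed at smaller ratios. Of 16 glycolytic enzymes 12 were higher, with Gapdh at 632 against 199 CPM in the 5XFAD-only library and 574 against 239 in the other, ratios of 3.17 and 2.40. Aldoa had ratios of 2.67 and 2.21, and Pkm, the last step of glycolysis, 2.64 and 2.15. Aldoc, the aldolase of astrocytes, was the highest of the list at 8.36 and 7.38. Of 25 cytoskeleton and neurofilament genes 20 were higher, among them the actin-binding peptide Tmsb4x at 3.35 and 2.65 and Actb at 2.57 and 2.11. Map1b, a microtubule-associated protein with a long mRNA, had ratios of 1.37 and 1.05 and did not pass the fold.

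Most heat shock and immediate-early genes were higher as well. Of 18 heat shock and unfolded protein response genes 15 were higher in both libraries, with the chaperones Hspa8 at 2.65 and 2.28 and Hsp90ab1 at 2.61 and 2.04. Of 12 immediate-early genes 8 were higher. The transcription factors Jund and Jun had ratios of 2.88 and 2.36, and of 1.90 and 2.01, while Junb at 1.34 and 1.70 did not pass the fold in the first library. Of 12 apoptosis genes 3 were higher, a share near the 21.7% of all genes, with median log2 ratios of 0.47 and 0.27. The pro-apoptotic Bax had ratios of 2.22 and 1.99, and its inhibitor Bcl2 1.25 and 3.29.

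Synaptic genes did not move together, and they differed between lists and within them. The part of gene length in these differences was not tested. Of 15 mRNAs known to be carried into dendrites, 7 were at least 1.5-fold higher in both libraries and none lower, with median log2 ratios of 1.10 and 0.57. Nrgn, the neurogranin of dendritic spines, stood at 759 against 278 CPM in the 5XFAD-only library and 790 against 396 in the other, ratios of 2.73 and 1.99. Camk2a, the spine kinase of long-term potentiation, had ratios of 1.77 and 1.26, and the dendritic microtubule protein Map2 1.47 and 1.06. The highest of the list, named after their values were seen, were Ddn, encoding dendrin, at 7.55 and 5.91 and Ppp1r9b, encoding spinophilin, at 7.05 and 5.39. Of 24 synaptic vesicle and release genes 8 were higher and 1 lower, and the list made up 0.767% of UMIs above the limit against 0.748% under it in the 5XFAD-only library, and 0.765% against 0.798% in the other. Within it the vesicle v-SNARE Vamp2 (named after its value was seen) had ratios of 3.18 and 2.25, the membrane SNARE Snap25 0.907 and 0.848, and the calcium sensor Syt1 0.667 and 0.586. The list's sum therefore hid members on both sides of 1.

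Most long synaptic genes and some scaffolds of the presynaptic active zone were lower above the limit. Of 12 active zone genes none was higher and 5 were lower in both libraries, with Erc2 at 687 against 1267 CPM in the 5XFAD-only library and 627 against 1324 in the other, ratios of 0.542 and 0.474. Rims1, which docks vesicles at release sites, had ratios of 0.549 and 0.487. Bsn at 1.33 and 1.09 and Ppfia3 at 1.27 and 1.12, both named after their values were seen, lay above 1. Of 24 long synaptic and adhesion genes 18 were lower and none higher, with median log2 ratios of -0.79 and -0.98. Lsamp, a membrane-anchored adhesion protein of limbic neurons, had a ratio of 0.599 (0.595 to 0.603) in the 5XFAD-only library and 0.600 (0.592 to 0.608) in the other. Kcnip4, a potassium channel partner, had ratios of 0.533 and 0.478, and the postsynaptic scaffold Dlg2 0.560 and 0.446. Together the list made up 4.69% of UMIs above and 8.10% under the limit in the 5XFAD-only library, and 4.02% and 7.67% in the other.

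Of 14 nuclear long noncoding RNAs 8 were lower in both libraries and 2 higher. Malat1 made up 5.55% of the UMIs above the limit against 9.58% under it in the 5XFAD-only library, a ratio of 0.579, and 6.07% against 8.96% in the other, a ratio of 0.678. Meg3 and Snhg11 had ratios of 0.540 and 0.510, and of 0.579 and 0.553. The 2 higher members were Neat1, the core RNA of paraspeckles, at 2.04 and 2.43, and Peg13 at 2.63 and 1.92. Both were named after their values were seen. Among lincRNA genes of the annotation as a whole 26.7% of 769 were lower, and among antisense genes 26.3% of 1237.

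The length of a gene, introns included, ordered the ratios of the protein-coding genes. Under 5 kb, 60.8% of 1275 genes were at least 1.5-fold higher in both libraries and 1.33% lower. The higher share fell to 43.9% at 5 to 10 kb, 26.5% at 10 to 30 kb, 12.3% at 30 to 100 kb and 8.98% at 100 to 300 kb. Over 300 kb, 4.40% of 546 genes were higher and 45.4% lower. These longest genes gave 19.4% of UMIs above the limit and 31.0% under it in the 5XFAD-only library, and 16.8% and 28.6% in the other. The 12 lowest genes by the naming rule included Dpp10, a potassium channel subunit spanning chromosome 1, 123321471 to 124045559 (mm10), at ratios of 0.426 and 0.382, and Kcnq5 (chromosome 1, 21398403 to 21961942), a voltage-gated potassium channel, at 0.457 and 0.323. Tafa1, Hs3st4, Mgat4c and the muscarinic receptor Chrm3 were also among them, with ratios from 0.323 to 0.459 over both libraries for these and Kcnq5.

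**Figure D2:**
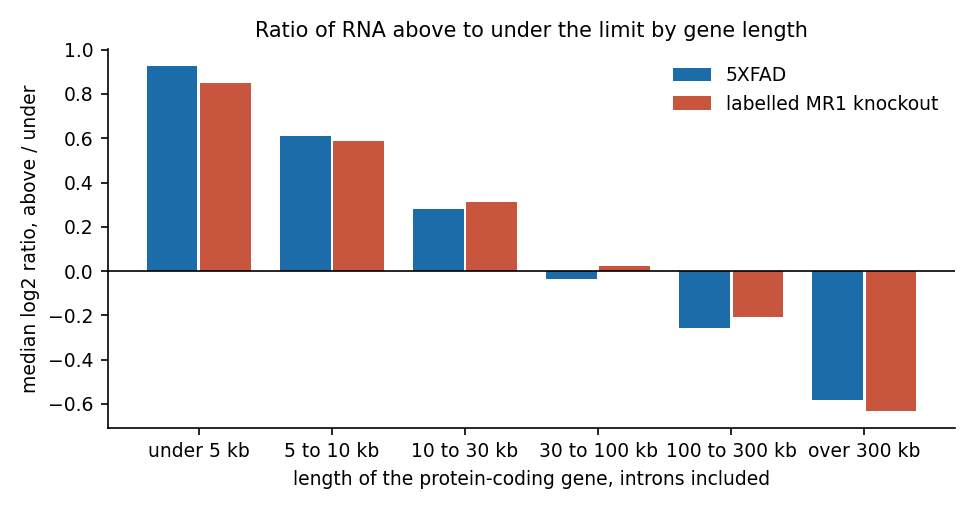
Median log2 ratio of RNA above to under the limit (vertical axis) for protein-coding genes grouped by length with introns (horizontal axis), 1 bar per library, scaled to UMIs outside the mitochondrial genes. The medians run from 0.92 and 0.85 under 5 kb to -0.58 and -0.63 over 300 kb.

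The RNA lists changed gradually with the mitochondrial share up to 10% and made no step at 5%. Ribosomal protein mRNAs made up 0.743% of UMIs in barcodes under 0.5% mitochondrial RNA in the 5XFAD-only library. They made up 3.29% at 4% to 5%, 3.77% at 5% to 6% and 16.1% at 20% or more. Within the library labelled MR1 knockout the same values were 1.07%, 2.98%, 3.51% and 12.2%. Malat1 went the other way, from 10.2% to 7.80%, 7.34% and 1.29% in the first library and from 9.87% to 7.33%, 7.07% and 1.59% in the second. At 10% to 20% ribosomal protein mRNAs stood at 7.64% and 6.53%, and Malat1 at 5.39% and 4.96%. The step from there to 20% or more was the largest for both. Cluster 12, described below, had median mitochondrial shares of 31.3% and 26.1% and so lay largely in this last step. In the 5XFAD-only library the median number of UMIs outside the mitochondrial genes fell from 10270 under 0.5% to 1485 at 5% to 6%. It then rose to 2235 at 10% to 20% and was 2192 at 20% or more. In the other library it fell from 4820 to 1564 at 5% to 6% and was 1486 at 20% or more. Under the limit depth thus fell as the mitochondrial share rose, and its part in the list values was not tested over the whole range. Among barcodes of like depth, with 1000 to 2000 UMIs outside the mitochondrial genes, the median log2 ratio of the ribosomal protein list was 1.36 and 1.06, and that of the long synaptic list -0.92 and -0.95.

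**Figure D3:**
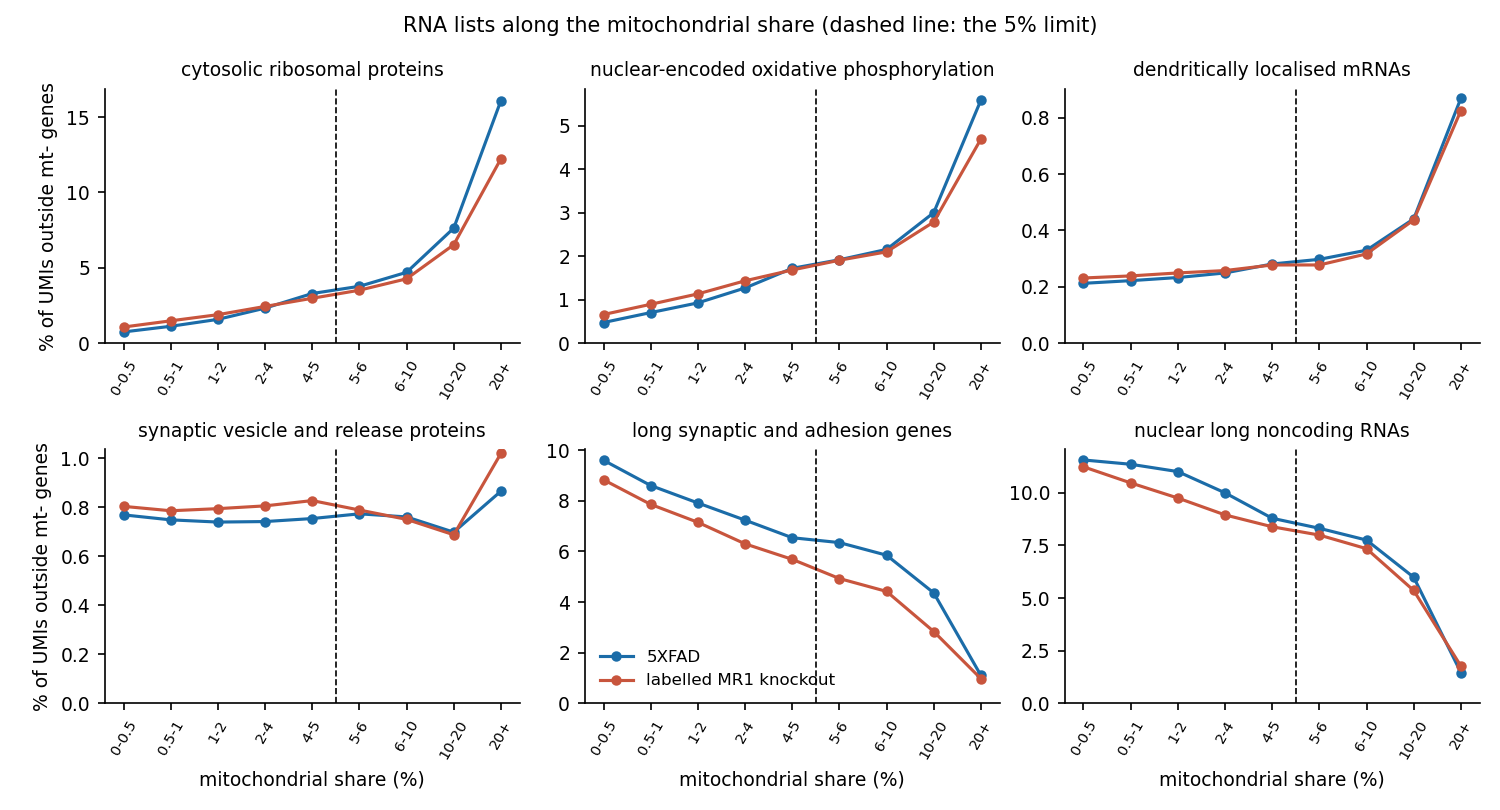
Share of UMIs outside the mitochondrial genes (vertical axes, percent) taken by 6 gene lists in steps of the mitochondrial share (horizontal axes, percent), 1 line per library; the dashed line marks the 5% limit. Ribosomal protein and oxidative phosphorylation mRNAs climb with the mitochondrial share, long synaptic genes and nuclear noncoding RNAs descend, and the synaptic vesicle list stays between 0.69% and 1.02%.

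Most markers of glial and vascular cells were higher above the limit, and so were part of the neuronal markers. Of 13 astrocyte markers 11 were higher in both libraries, with median log2 ratios of 2.29 in the 5XFAD-only library and 3.41 in the one labelled MR1 knockout. The glutamate transporter Slc1a2 stood at 1521 against 289 CPM and at 2733 against 239, ratios of 5.26 and 11.4. The water channel Aqp4 had ratios of 7.49 and 22.4, and Gfap, the intermediate filament of reactive astrocytes, 9.55 and 12.6. Of 14 oligodendrocyte markers 13 were higher, with Mbp, whose mRNA is carried into myelin, at 4.29 and 5.19. Of 13 microglia markers 11 were higher, with the complement gene C1qa at 2.30 and 2.28 and the signalling adaptor Tyrobp at 2.37 and 2.42. P2ry12, the purinergic receptor of resting microglia, was an exception at 0.881 and 1.13 and was named after its value was seen. All 10 endothelial markers were higher, with median log2 ratios of 1.98 and 2.11. Of 10 oligodendrocyte precursor markers 6 were higher, but their summed ratios were 0.931 and 0.958. Of 12 inhibitory neuron markers 7 were higher and 1 lower, with medians of 0.70 and 0.69. Of 9 CA1 markers 5 were higher and 3 lower, with medians of 0.87 and 0.68 but summed ratios of 0.874 and 0.895. Other neuronal lists rose less or fell, such as CA2/CA3 with 1 of 10 higher and 4 lower. In bulk sums like these, more barcodes of a type and more RNA per barcode cannot be told apart.

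Among the 12 highest genes by the naming rule, 7 were genes known from astrocytes or from glia more widely: Ndrg2, Gfap, Glul, Aldoc, Aqp4, Mt1 and Mt2. Ndrg2 (chromosome 14, 51905271 to 51914158, mm10) had ratios of 10.2 and 10.7, and Glul, the glutamine synthetase of astrocytes, 8.53 and 8.55. The metallothioneins Mt1 and Mt2, which bind zinc and copper, had ratios of 7.02 and 7.35, and of 7.38 and 10.4. The rest were 2900052N01Rik, at 9.60 and 10.7, and the haemoglobin genes Hba-a1, Hba-a2, Hbb-bs and Hbb-bt, at ratios from 10.04 to 31.5. A single barcode gave 2031 of the 2790 globin UMIs above the limit in the 5XFAD-only library, and another gave 1465 of 1988 in the other library. Without barcodes holding 20 or more globin UMIs, globins stood at 31.4 CPM above against 11.1 under the limit, and at 35.4 against 11.3. Alas2, listed with the globins as an erythrocyte marker, went the other way at ratios of 0.546 and 0.648.

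Barcodes of both libraries were clustered together without the mitochondrial genes and without the cytoplasmic, synaptic, nuclear and stress lists, and clusters were given class names from marker genes. Glial, vascular and immune classes had the greater parts above the limit. In the 5XFAD-only library the limit was passed by 585 of 985 astrocyte-like barcodes (59.4%, 56.2 to 62.5), by 56.2% of 1871 oligodendrocyte-like and by 62.4% of 700 microglia-like barcodes. In the library labelled MR1 knockout the same classes passed at 54.2% of 875 (50.8 to 57.5), 18.7% of 1156 and 20.5% of 1011. Astrocyte-like barcodes were therefore near the same share in both libraries, while the other 2 classes were lower in the second, as the library was as a whole. As a result astrocyte-like barcodes made up 7.22% of the barcodes above the limit in the first library and 22.1% in the second, against 2.60% and 1.80% under it.

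Endothelial-like barcodes passed at 75.8% of 62 and 43.0% of 86, and mural-like, the pericyte and smooth muscle class, at 74.7% of 83 and 26.2% of 80. Ependymal-like barcodes, from the ciliated lining of the ventricles, passed in 24 of 24 and 19 of 21 cases. Oligodendrocyte precursor-like barcodes passed at 40.6% of 613 and 9.96% of 773. Most neuronal classes had smaller shares. The exception was the 37 Cajal-Retzius cell-like barcodes of the 5XFAD-only library, at 45.9% (29.5 to 63.1), against 6.06% of 66 in the other. Dentate granule neuron-like barcodes passed at 24.8% of 1997 and 6.72% of 4715, CA1-like at 18.3% of 2026 and 2.32% of 1983, and CA2/CA3-like at 9.41% of 1413 and 2.22% of 2031. The order ran with depth in part: microglia-like barcodes had medians of 1356 and 929 UMIs, astrocyte-like 2621 and 2037, and CA2/CA3-like 6019 and 4087. The part of depth in this order was not tested.

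**Figure D4:**
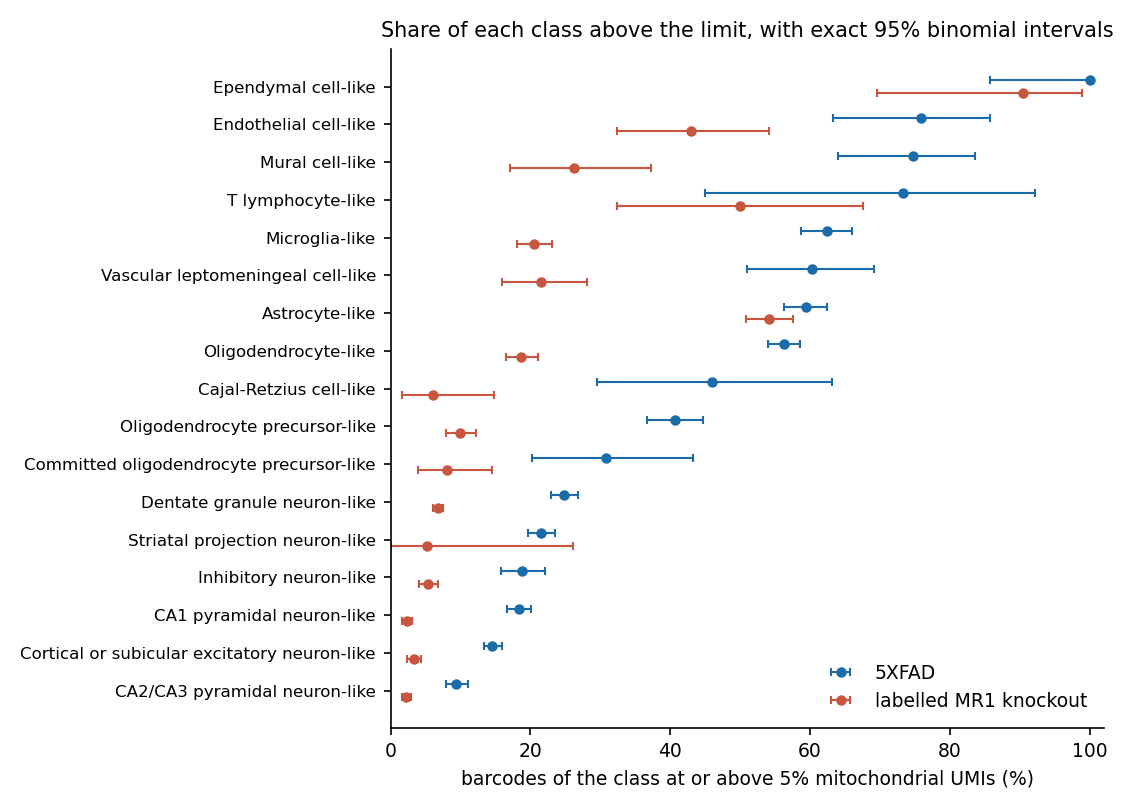
Share of the barcodes of each named class that lie at or above 5% mitochondrial UMIs (horizontal axis, percent), with exact 95% binomial intervals that cover counting error only, for the 2 libraries; classes are ordered by the 5XFAD-only library. Astrocyte-like and ependymal-like barcodes lie above 50% in both libraries, and the CA2/CA3 pyramidal class is lowest in both at 9.41% and 2.22%.

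Within classes the cytoplasmic lists were still higher above the limit, at smaller ratios. For the summed ribosomal protein mRNAs the ratio was 3.33 (3.29 to 3.37) in astrocyte-like barcodes of the 5XFAD-only library, 2.10 in oligodendrocyte-like, 1.97 in microglia-like and 2.50 in dentate granule neuron-like barcodes. Among barcodes of the library labelled MR1 knockout the 4 ratios were 2.29, 1.51, 1.70 and 1.90. Median depth above and under the limit was close in the first 3 of these classes in the 5XFAD-only library, for example 1267 and 1228 UMIs outside the mitochondrial genes in microglia-like barcodes. Nuclear long noncoding RNAs had ratios of 0.606 in astrocyte-like, 0.629 in oligodendrocyte-like and 0.659 in microglia-like barcodes of the 5XFAD-only library, and of 0.637, 0.787 and 0.716 in the other. Dendritic mRNAs had ratios of 2.19 in oligodendrocyte-like and 2.08 in microglia-like barcodes of the 5XFAD-only library, classes of non-neuronal cells. Astrocyte markers likewise had ratios of 2.45 and 2.24 in these 2 classes and of 1.93 in dentate granule neuron-like barcodes of the same library. In that library, barcodes of these classes above the limit thus also held more RNA of markers from outside their class. The same ratios are not given here for the other library.

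When the barcodes under the limit were weighted to the cluster mix of those above it, 788 genes were at least 1.5-fold higher and 128 lower in both libraries. Cluster 12, described below, held 15.99% and 5.31% of the barcodes above the limit but only 2 and 1 barcodes under it. The mix could therefore hardly be matched for that cluster. The ribosomal protein list then had median log2 ratios of 1.24 and 0.95, the dendritic list 0.65 and 0.48, the astrocyte list 0.92 and 0.79, and the long synaptic list -0.34 and -0.60. The oligodendrocyte list fell to -0.07 and 0.09, the microglia list to 0.15 and 0.20, and the endothelial list to 0.33 and 0.51. The heat shock list fell from 1.05 and 0.97 to 0.37 and 0.43, and the immediate-early list from 0.97 and 0.81 to 0.39 and 0.51. Within that limit, the direction of the cytoplasmic and long gene lists was kept in this comparison, while the oligodendrocyte list lost its direction.

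One cluster, numbered 12, lay almost wholly above the limit. It held 1295 of 1297 and 114 of 115 of its barcodes there, which is 15.99% and 5.31% of all barcodes above the limit. Its median mitochondrial share was 31.3% (interquartile range 27.6 to 34.0) in the 5XFAD-only library and 26.1% (23.2 to 28.8) in the other. Its leading genes were Ndrg2, 2900052N01Rik, Rasl10b, Glul, Gstm1 and S100b. No class had more than 2 markers among its top 100 genes, so it was given no class name. Oligodendrocytes had Mbp and Mobp there, and astrocytes had Slc1a2 and Gfap. Without it, 3305 genes were at least 1.5-fold higher and 736 lower above the limit in both libraries, in place of 3508 and 1348; 3194 and 731 of these genes were the same. Its barcodes had medians of 3163 and 2028 UMIs, mitochondrial ones included, against 4066 and 2767 under the limit. They had medians of 1302 and 1030 detected genes, against 2074 and 1628. Doublet scores marked 5.24% of the cluster.

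Most RNAs known to stay in the nucleus were low in cluster 12. Of the 14 nuclear long noncoding RNAs 13 were at least 1.5-fold lower than under the limit in both libraries, and 1 was higher. Malat1 made up 0.512% of its non-mitochondrial UMIs in the 5XFAD-only library, against 6.39% in the other barcodes above the limit and 9.58% under it. For the library labelled MR1 knockout the 3 values were 0.903%, 6.31% and 8.96%. All 24 long synaptic genes were at least 1.5-fold lower than under the limit in both libraries, where 40.9% of all 16181 genes compared were, and 79 of 79 ribosomal protein genes were higher, where 23.1% of all genes were. These genes were not used to make the clusters, but other long genes and other short mRNAs could be. The cluster was also picked for lying above the limit, so this contrast is partly given by how it was made and picked. Kcnip4 had a ratio of 0.0461 (0.0431 to 0.0492) in the 5XFAD-only library and 0.0402 (0.0296 to 0.0533) in the other, and Meg3 0.0926 and 0.153. Fewer than 2 Xist UMIs and no Y-linked UMI were found in 87.6% and 88.6% of the cluster's barcodes, against 20.8% and 23.7% under the limit. Those barcodes were given to neither mouse. Barcodes of the cluster that were given to a mouse were 34 female and 121 male in the 5XFAD-only library, and 2 and 11 in the other. Xist is itself a nuclear RNA, and a low count of it leaves the mouse of origin unknown.

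Synaptic mRNAs in cluster 12 differed gene by gene. Of the 15 dendritic mRNAs 13 were at least 1.5-fold higher than under the limit in both libraries, and the list made up 0.965% and 0.9501% of UMIs against 0.234% and 0.243%. Ddn stood at 895 against 39.8 CPM in the 5XFAD-only library, a ratio of 22.5 (21.4 to 23.7), and at 911 against 39.8 in the other, a ratio of 22.9 (19.5 to 26.8). Ppp1r9b had ratios of 20.2 and 23.0, and Psd, an exchange factor of the postsynaptic density, 11.9 and 12.3. Shank1, a scaffold of the same density, had ratios of 6.87 and 6.46, and Camk2a 4.05 and 3.45. The exception was Grin1, the obligatory NMDA receptor subunit, at 0.461 and 0.499. Presynaptic genes were spread from Vamp2 at 7.12 and 5.59, over Snap25 at 0.9497 and 1.13, to Syt1 at 0.473 and 0.582. Apart from Camk2a, Snap25 and Syt1, the genes of this paragraph were named after their values were seen.

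Glial mRNAs in the same cluster came from more than 1 cell type. Gfap had ratios of 23.9 (22.6 to 25.3) and 22.2 (19.2 to 25.5) against the barcodes under the limit, Slc1a2 10.96 and 7.13, and Mbp 9.58 and 17.4. Of the 13 astrocyte markers 9 were higher and 2 lower in both libraries, of the 14 oligodendrocyte markers 8 higher and 3 lower, and of the 13 microglia markers 10 higher and 2 lower. Mbp, Gfap and Slc1a2 were among the genes that could shape the clusters, so their levels here are partly given by how the cluster was made.

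Cluster 1 was another unnamed set with a large part above the limit, 1277 of 1887 barcodes in the 5XFAD-only library (67.7%) and 93 of 345 (27.0%) in the other. It was shallow, with medians of 700 and 673 UMIs. In its barcodes above and under the limit, ribosomal protein mRNAs made up 7.92% and 7.77% in the 5XFAD-only library, and Malat1 1.86% and 2.06%. Barcodes with fewer than 500 genes, which the rule leaves out, had 8.25% and 1.75%, so cluster 1 lay close to these in both values. Within the library labelled MR1 knockout the cluster had 6.99% above and 6.42% under the limit for ribosomal protein mRNAs, and barcodes with fewer than 500 genes had 6.61%. Malat1 there made up 2.64% above and 3.24% under it, and the choroid plexus markers 2.04% and 0.562%, so the 2 sides of the limit lay further apart in this library.

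Without clusters 1 and 12 there were 5526 and 1941 barcodes above the limit. In these, Malat1 made up 6.63% and 6.39% of UMIs and ribosomal protein mRNAs 5.57% and 4.57%, against 9.62% and 8.97%, and 1.58% and 1.64%, under the limit. Barcodes with under 1% Malat1 numbered 1556 of 8098 above the limit in the 5XFAD-only library (19.2%, 18.4 to 20.1) and 108 of 15408 under it (0.701%). In the other library they numbered 101 of 2148 (4.70%, 3.85 to 5.68) and 8 of 22263. Cluster 12 held 1216 of the 1556 and 84 of the 101. The 1% value was set after the data were seen.

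**Figure D5:**
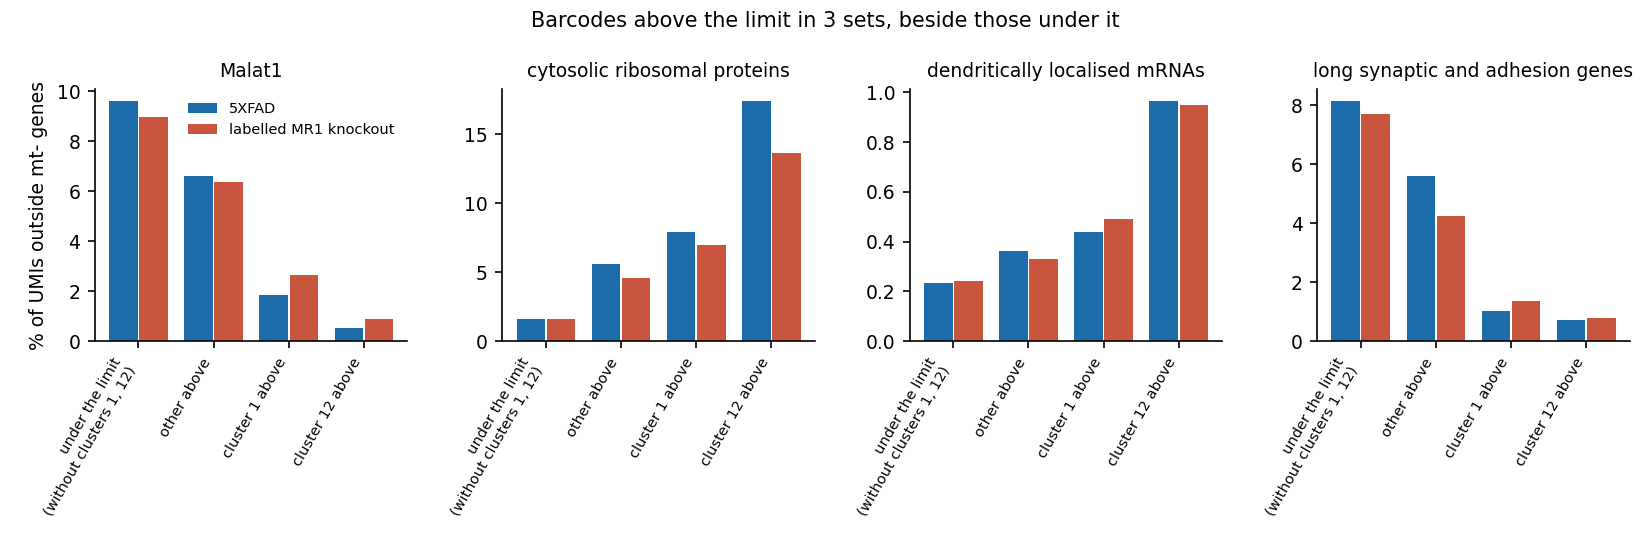
Share of UMIs outside the mitochondrial genes (vertical axes, percent) taken by Malat1 and 3 gene lists in barcodes under the limit and in 3 sets above it, 1 bar per library; clusters 1 and 12 are left out of the first 2 sets. Cluster 12 has the least Malat1 (0.512% and 0.903%) and the most ribosomal protein mRNA (17.4% and 13.6%).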

How the data were processed

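The deposited matrices hold raw counts of UMIs per gene and barcode. Cell Ranger 7.0.0 made them, per the file headers. The submitters' processing notes add the mm10 build and Seurat, with no role for the latter. Annotation, strand setting and use of introns: not given in the sources used here. Of 32285 gene IDs, 32235 matched GENCODE M21, which gave lengths and coordinates. The members and the 34 gene lists were chosen with earlier results of these data known. UMIs were summed per library above and under the limit. Ratios have exact conditional binomial 95% intervals and shares exact Clopper-Pearson intervals; UMIs of 1 library are not replicates, so no p-value is given. The method was tested on simulated counts.

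Clustering used scanpy 1.11.5 (2500 variable genes, 40 components, 20 neighbours, Leiden resolution 1.5) without mitochondrial, sex-linked, cytoplasmic, synaptic, nuclear and stress list genes. Naming a cluster took 3 or more class markers among the top 100 genes by fold, no other class in the lead, no shallow depth, and RNA of both sexes in under 15% of barcodes; the 100 and 15% were set after seeing a first clustering. Doublets were scored with Scrublet at 0.8% per 1000 barcodes and kept. They made up 20.7% and 13.7% of the barcodes above the limit and 17.6% and 20.1% under it. A barcode was given to the female mouse at 2 or more Xist UMIs and no Y-linked UMI, and to the male mouse with Y-linked UMIs and no Xist. Mitochondrial, Y-linked, Xist and Tsix genes were left out of the genes compared. Named genes were the 12 highest and 12 lowest by the interval bound nearest to 1 in the weaker library and the 3 members of each list with the most UMIs; others are said to be named after their values were seen. A few genes that this rule names are not reported here. TMM factors came from edgeR 4.0.16 in R 4.3.3.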

Additional observations from a re-analysis of the deposited data

How the results depend on the processing

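The ribosomal protein, oxidative phosphorylation, translation factor and dendritic lists kept a median above 0, and the active zone, long synaptic and nuclear noncoding lists one under 0, in both libraries under every alternative run. The count of higher genes (3508) became 788 with the cluster mix matched, 2128 with barcodes thinned to 1000 UMIs, 1784 in the male mice and 704 at 1000 to 2000 UMIs. The count of lower genes (1348) became 2302 with all UMIs in the total, 3261 at a limit of 10%, 128 with the mix matched, 487 and 288 in the female and male mice, 736 without cluster 12 and 859 at 1000 to 2000 UMIs. TMM scaling gave 2678 and 2009. Some runs compared fewer genes than the 16184 of the main one, so changes in these counts are not changes in share. Genes compared numbered 12559 when thinned, 14172 and 11421 in the female and male mice, and 9552 at 1000 to 2000 UMIs. In that depth band more genes were lower (859) than higher (704). The depth band, the removal of cluster 12 and that of the transcripts Gm42418, AY036118, Lars2 and Cmss1 from the total (3528 and 1331) were chosen after seeing the data. Fewer barcodes enter the mouse and depth alternatives; otherwise the cause was not tested.

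The share above the limit became 28.9% and 6.26% at 1000 genes, 15.2% and 2.58% at 10%, 33.6% and 9.44% without doublets, 25.1% and 6.71% for females, 25.01% and 6.69% for males, 30.6% and 8.37% without cluster 12, and 49.3% and 14.6% at 1000 to 2000 UMIs.

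Reversed log2 values, with the mix matched, were the oligodendrocyte list -0.071, Dnah12 -1.34, Gpc5 -0.16, Ptprb -0.11 and St18 -0.35 in the 5XFAD-only library, and Cfap299 -0.094, Gpc5 -0.18 and Ranbp3l -0.044 in the other. In the female mice Cfap299 was -0.63 in the library labelled MR1 knockout. In the male mice the mural list (2 genes measured, 5 in the main run) was -0.44, Alas2 0.19 and Hba-a2 -0.72 in that library. In the same mice Adarb2 was 0.12 and Ptprb -0.058 in the 5XFAD-only library. At 1000 to 2000 UMIs the oligodendrocyte precursor list was -0.26 and -0.45, and in the 5XFAD-only library the committed precursor list was -0.036, Gpc5 -0.38, Sox6 -0.26, St18 -0.37 and Tcf7l2 -0.29. No paired analysis was possible because there was 1 library per genotype. Few barcodes limit the precision for small classes: 24 of 24 ependymal-like barcodes give an interval of 85.8% to 100%.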

Other observations

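T lymphocyte-like barcodes were few, and many of them lay above the limit: 11 of 15 in the 5XFAD-only library (73.3%, 44.9 to 92.2) and 17 of 34 in the one labelled MR1 knockout (50.0%, 32.4 to 67.6). Those above the limit held 26 and 15 UMIs of Skap1, a T cell adaptor, and 20 and 13 of Themis, which acts in T cell selection. Trav1, the gene segment used by the receptor of mucosal-associated invariant T cells, gave 0 UMIs in every set of barcodes. With 3' sequencing and so few T lymphocyte-like barcodes, this cannot show whether such cells were present. A filter at 5% would leave 4 and 17 of the T lymphocyte-like barcodes.

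Ttr, a choroid plexus gene, stood at 371 against 174 CPM above and under the limit in the 5XFAD-only library and at 2729 against 950 in the other, while the choroid genes Kcnj13 and Prlr had ratios of 0.708 and 1.15, and of 0.920 and 0.913. In cluster 1 of the library labelled MR1 knockout the choroid list, in which Ttr is counted, made up 2.04% of UMIs above the limit and 0.562% under it.

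Barcodes with fewer than 500 genes numbered 1732 and 1801, with median mitochondrial shares of 5.17% and 2.62%.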
